A study of Mus musculus with 29 samples.

Results

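The interferon-stimulated genes described here are 42 genes of the type I and type II interferon response, taken by symbol from the 55376 gene symbols counted in each RNA-seq library. All 42 were among the 33690 genes that passed the filter on low counts. They fall into 10 groups by role: 3 transcription factors, 6 RNA and DNA sensors, 4 genes of the IFIT family, 5 of the OAS family, 2 of the ISG15 system, 3 membrane proteins, 2 Mx GTPases, 6 GTPases of the GBP and IRG families, 5 genes of PARP, ubiquitin ligase or apoptosis-linked proteins, and 6 other effectors. The study sorted hematopoietic stem cells (HSCs) from the bone marrow of mice with and without Gadd45b, a stress-induced gene with a reported part in DNA demethylation, to ask how its loss and age bear on HSCs. RNA-seq libraries came from young wild-type HSCs (YWT, n = 4), old wild-type HSCs (OWT, n = 4), young HSCs of the genotype Gadd45KO (YKO, n = 4) and old HSCs of that genotype (OKO, n = 7), with no treatment other than age named in the labels. All groups share the sort for Lin-, cKit+, Sca1+, CD34-, Flk2- and CD150+ cells. The KO mice are a JAX line bred and aged by the study, in which the gene is not deleted in HSCs alone. The labels give age as young or old without months and do not say whether the libraries of a group came from separate animals, so p-values measure the spread between these libraries, which may be technical.

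Interferons bind receptors whose kinases activate the STAT proteins. Type I interferons act mainly through a complex with Stat2 and Irf9 that binds a promoter element called ISRE, and the response to interferon gamma uses the GAS element. The induced genes sense foreign nucleic acids, block viral entry and translation, and attack vacuoles of intracellular pathogens. In HSCs, interferon is known to bring quiescent cells into cycle, and stem cells are known to hold a basal level of some of these genes without infection.

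The 42 genes lie on 15 chromosomes of mm10, and 21 of them lie in 8 clusters of genes less than 200 kb apart. The largest cluster holds Ifit2, Ifit3, Ifit3b and Ifit1 (chr19:34550694-34650009). Others hold Gbp7, Gbp3 and Gbp2 (chr3:142530342-142638008), Oas2, Oas3 and Oas1a (chr5:120730333-120907521), and Parp14, Dtx3l and Parp9 (chr16:35832874-35972605). RefSeq promoter windows (GRCm38.p6, 250 bases before to 50 after the start) were at hand for 31 of the genes, and each of their 37 windows equalled the genome at its coordinates. The ISRE core, a pair of GAAA blocks with 2 bases between them on either strand, was found in 19 of these 31 genes (61.3%) and in 1079 of all 27025 genes with a window (3.99%). The GAS motif TTCNNNGAA, which reads the same on both strands, was found in 9 (29%) and in 2582 (9.55%). A match is a description of the letters, and 2 ISRE matches can overlap. The stretches of 60 bases below all lie before the RefSeq start of their window. The GENCODE starts of Irgm1, Gbp2 and Gbp3 lie further upstream, so the stretch of Irgm1 lies wholly and those of Gbp2 and Gbp3 partly after them. All are printed 5′ to 3′ on the gene's strand, with the ISRE matches in capitals (GAAA blocks, or TTTC blocks where the match is on the other strand). They were picked because they hold a match, and they show the ISRE letters in IFIT, GBP and IRG genes, Isg15 and Oas1a. The genes with no match or no window, Ifi44 and Rtp4 among them, are not shown. Nor is every gene with a match: Stat2, Oas3, Bst2, Trim30a and Rsad2 also hold a match before the start. Ifih1, Ddx58, Ifitm3 and Eif2ak2 hold matches only after it.
Isg15 (chr4:156200850-156200909, minus strand): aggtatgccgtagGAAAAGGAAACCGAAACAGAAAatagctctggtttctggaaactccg
Oas1a (chr5:120907526-120907585, minus strand): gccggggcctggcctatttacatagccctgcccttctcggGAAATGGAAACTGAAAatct
Ifit1 (chr19:34640779-34640838, plus strand): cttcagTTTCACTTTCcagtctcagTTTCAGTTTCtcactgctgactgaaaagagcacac
Ifit3 (chr19:34583382-34583441, plus strand): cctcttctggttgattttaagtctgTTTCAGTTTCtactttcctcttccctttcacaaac
Ifit3b (chr19:34607778-34607837, plus strand): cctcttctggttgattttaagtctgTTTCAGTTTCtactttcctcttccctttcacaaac
Gbp2 (chr3:142620579-142620638, plus strand): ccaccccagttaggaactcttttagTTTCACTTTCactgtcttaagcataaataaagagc
Gbp3 (chr3:142559980-142560039, plus strand): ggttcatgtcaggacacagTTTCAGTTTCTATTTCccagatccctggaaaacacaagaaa
Gbp7 (chr3:142530258-142530317, plus strand): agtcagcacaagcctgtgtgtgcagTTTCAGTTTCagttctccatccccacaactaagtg
Igtp (chr11:58199496-58199555, plus strand): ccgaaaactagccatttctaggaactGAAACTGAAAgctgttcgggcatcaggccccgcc
Irgm1 (chr11:48871421-48871480, minus strand): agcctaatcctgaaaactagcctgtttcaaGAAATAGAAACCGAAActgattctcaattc
The stretches of Ifit3 and Ifit3b hold the same letters, and 51.2% of the words of 50 bases in Ifit3 transcripts also occur in Ifit3b, so the counts of this pair are uncertain. The same holds for Oas1a, which shares 57.6% of such words with Oas1g. The window of Isg15 held 3 overlapping matches. The windows of Ifi44, Irf7, Irf9, Ifitm1, Oasl1, Oasl2, Xaf1, Adar, Ifi35, Cmpk2, Dtx3l and Ifit2 held no ISRE match (those of Adar, Ifi35 and Ifit2 held a GAS match), and Oas2, Mx1, Mx2, Usp18, Dhx58, Rtp4, Iigp1, Parp9, Parp14, Zbp1 and Ifi27l2a had no window in the table.

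Each library held from 22197555 to 77970627 reads assigned to genes, of which 47162 to 386629 fell on the 42 genes. TMM scaling factors ran from 0.692 (YWT2) to 1.83 (OKO1), and OKO1 stood apart with 27972 genes above 1 CPM against 15296 to 20579 in the other libraries. The CPM of Gadd45b was 7.34 to 17.5 in YWT, 5.14 to 14.3 in YKO, 10.1 to 15.5 in OWT and 2.84 to 6.94 in OKO, so YKO1 and YKO2 lay within the YWT range, and groups follow the labels throughout. The labels give female for every library, whereas the methods name both sexes, and 7 libraries held reads of Y-linked genes, 2 each of YWT, YKO and OKO and 1 of OWT. The titles of the OWT libraries and of OKO4 to OKO7 carry the prefix IB15, and those of YWT, YKO and OKO1 to OKO3 do not. The study lists these as separate sequencing batches, so in wild-type HSCs age and batch cannot be told apart. All 6 markers of the sort (Kit, Ly6a, Slamf1, Procr, Cd34 and Flt3) were counted in all 19 libraries, with sums of 1412 to 1905 CPM in YWT, 1713 to 2567 in OWT, 1302 to 1603 in YKO and 1206 to 2227 in OKO. The 7 B cell markers summed to 210.2 to 642 CPM in YWT, 63.6 to 204 in OWT, 189.6 to 1452 in YKO and 27.3 to 195 in OKO, with YKO1 (789) and YKO2 (1452) the highest of all.

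All 42 genes were expressed in young wild-type HSCs, over a wide range. Set per kb of exon sequence, the levels in YWT ran from 1.01 CPM per kb for Ifit3b to 737 for Ifitm3. Ifitm3 and Ifitm1 (426), membrane proteins that restrict the entry of enveloped viruses, stood far above the next gene, Bst2 (76.6), which tethers budding virions to the cell surface. Igtp (45.6), Ifi35 (38.5) and Gbp2 (30.8) followed. The genes often used as readouts of an interferon response were much lower, with Isg15 at 12.4, Irf7 at 10.2, Ifit1 at 9.95, Usp18 at 7.49, Rsad2 at 6.73 and Oas2 at 1.596 CPM per kb. Mx2 (1.27) and Mx1 (1.02) stood with Ifit3b at the bottom. Ifitm3 stayed the first gene in each group mean, at 1289 CPM per kb in OWT, 528 in YKO and 983 in OKO. The interferon genes themselves were almost absent: each of the 21 listed had a count in at least 1 library, none in more than 15 of the 19, and the highest value in any library was 0.659 CPM, for Ifng.

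**Figure D1:**
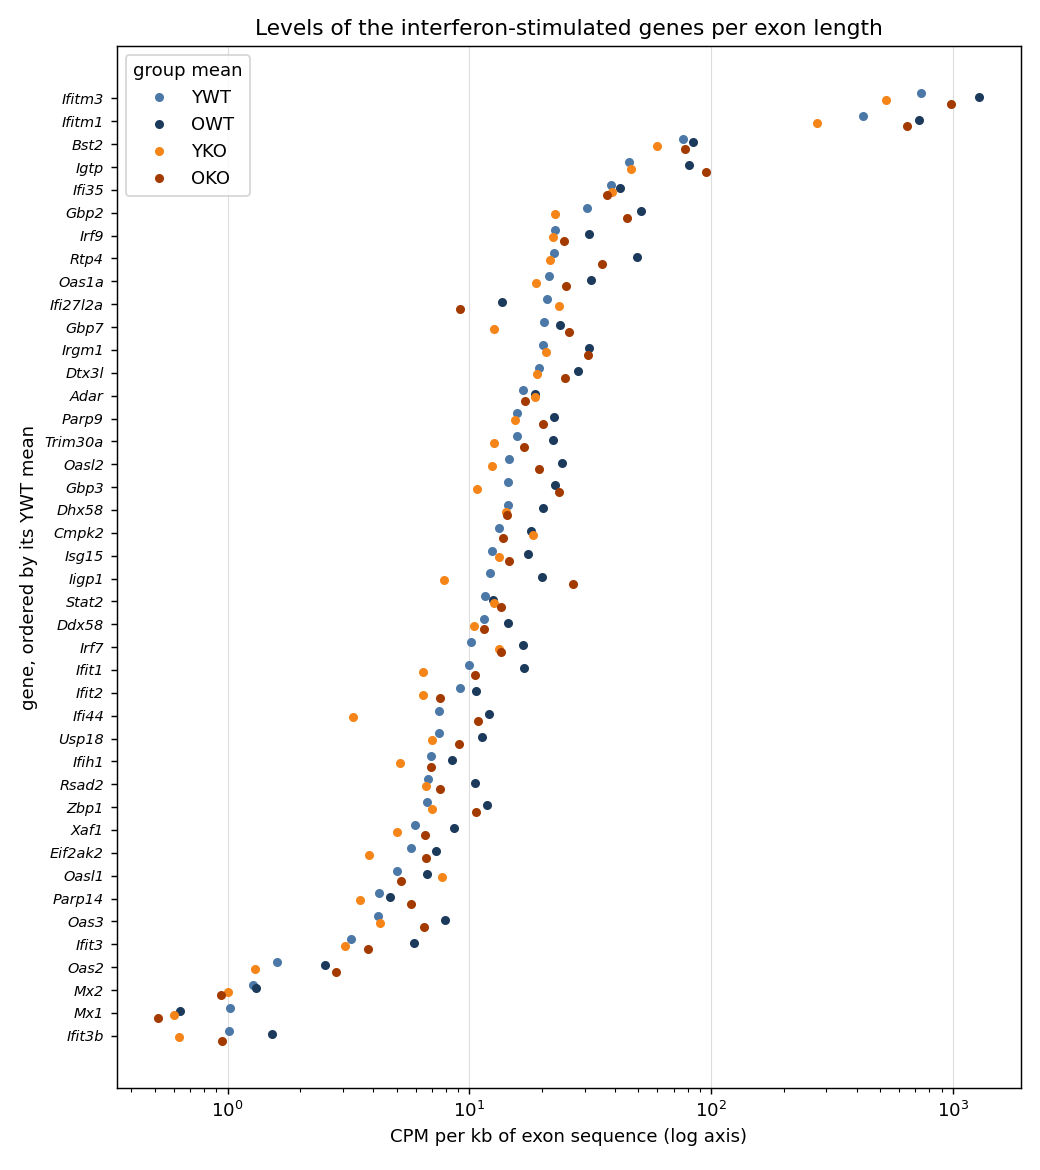
Mean level of each of the 42 interferon-stimulated genes in YWT, OWT, YKO and OKO, as CPM per kb of exon sequence on a log axis, with the genes ordered by their YWT mean. Ifitm3 and Ifitm1 lie to the right of all other genes in each group, and Ifit3b, Mx1 and Mx2 lie at the left.

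With age in wild-type HSCs, 40 of the 42 genes had a positive log2 fold change (OWT vs. YWT), with a median of 0.54 against -0.05 over all tested genes and 0.05 over the 11253 genes whose log2 CPM averaged 3 or more. No gene was called, where a call means a fold change of more than 1.5 with an edgeR adjusted p below 0.05. Of all tested genes, 0.00297% were called in this comparison. At an unadjusted p under 0.05, 20 of the 42 were higher in OWT, where 2.64% of all tested genes were, and 0 were lower, where 1.74% were. DESeq2 called 1 of the 42, Rtp4, where it called 0.401% of all tested genes. In 15 of the 42, the 4 OWT libraries were higher than each YWT library (2.24% of all tested genes), and in 1, Mx1, all lay below (1.9%). Age and batch cannot be told apart in these values. The prefix was also used as a covariate, where the batch term rests on the OKO libraries. The median of the 42 was then 0.48 against 0.19 over all tested genes, and 38 of the 42 were positive. At an unadjusted p under 0.05, 13 of the 42 were higher in that fit, where 5.92% of all tested genes were. In the other direction 1 was lower, where 10.8% were. Beside them, markers of other cells moved in the same comparison at an unadjusted p under 0.05: 5 of 7 granulocyte markers were higher in OWT, and 5 of 7 B cell markers and 3 of 6 erythroid markers were lower. Their part in the result was not tested.

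Between young KO and young wild-type HSCs, which share a batch, 30 of the 42 genes had a negative log2 fold change (YKO vs. YWT), with a median of -0.16 against -0.02 over all tested genes and 0.03 over those whose log2 CPM averaged 3 or more. None was called, where 0.0267% of all tested genes were. DESeq2 called 1, Ifi44, where it called 0.404% of all tested genes. At an unadjusted p under 0.05, 3 genes were lower in YKO (Ifi44, Ifit1 and Eif2ak2), where 2.68% of all tested genes were, and 0 were higher, where 1.91% were. All 4 YKO libraries lay below all 4 YWT libraries in 6 genes, Ifi44, Ifit1, Ifit3b, Gbp2, Gbp3 and Gbp7 (3.01% of all tested genes), and above them in 0 (2.12%). Markers of other cells moved in this comparison too. All 6 erythroid markers had a positive log2 fold change, with a median of 1.67 and 4 of them at an unadjusted p under 0.05, and they summed to 515 to 1667 CPM in YKO against 297 to 393 in YWT. At the same threshold 5 of 7 T and NK cell markers were higher in YKO. Their part in the result was not tested.

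With age in KO HSCs, 35 of the 42 genes had a positive log2 fold change (OKO vs. YKO), with a median of 0.40. Over all tested genes the median was 0.23, and over those whose log2 CPM averaged 3 or more it was -0.19. Only 1 gene was called, Ifi44, which rose, where 1.29% of all tested genes were called. At an unadjusted p under 0.05, 17 of the 42 were higher in OKO, where 7.89% of all tested genes were, and 0 were lower, where 7.93% were. In 5 genes, Ifi44, Oasl2, Gbp2, Gbp3 and Rtp4, all 7 OKO libraries lay above all 4 YKO libraries (1.12% of all tested genes), and in 0 did all lie below (1.48%). The number of genes called depended on the processing, from 1 to 22, and Ifi44 was among them in each of the 30 alternatives. Within 1 batch, OKO1 to OKO3 against YKO, 12 of the 42 rose and 1, Ifi27l2a, fell, where 17.9% of the genes tested in that fit were called. These OKO libraries had the highest TMM factors of all 19 (1.83, 1.24 and 1.41). Of the 12, Gbp2, Gbp3, Gbp7, Igtp, Iigp1, Eif2ak2, Oas2, Parp14 and Ifi44 had their highest value of all 19 libraries in OKO2. Ifit1, Oasl2 and Rtp4 did not.

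All OWT libraries carry the prefix IB15 and OKO1 to OKO3 do not, so the comparison of old KO with old wild-type HSCs mixes batches. In it, 35 of the 42 genes had a negative log2 fold change (OKO vs. OWT), with a median of -0.29. Of the genes whose log2 CPM averaged 3 or more, only 13.9% were positive, so that the share of negative values among the 42 was not above theirs. The median over those genes was also negative, at -0.20, while that over all tested genes was 0.12, and with upper-quartile factors 18 of the 42 genes were positive and the median of the 42 was -0.05. No gene was called by edgeR, where 0.0327% of all tested genes were, and DESeq2 called 0. At an unadjusted p under 0.05, 6 were lower in OKO (Ifit1, Ifit3, Dhx58, Trim30a, Xaf1 and Rtp4), where 2.23% of all tested genes were, and 0 were higher, where 5.91% were. Of the genes whose log2 CPM averaged 3 or more, 5.12% were lower and only 0.258% higher at that threshold. No gene had all OKO libraries above those of OWT (0.46% of all tested genes) or all below (0.359%). All 7 granulocyte markers were lower in OKO at an unadjusted p under 0.05, with a median log2 fold change of -1.78, and their part in the result was not tested. Within 1 batch, OKO4 to OKO7 against OWT, 0 of the 42 were called, where the alternatives called 0% to 0.217% of all genes tested. The 6 genes named above had log2 fold changes from -0.63 (Ifit3) to -0.20 (Trim30a) there. The genotype by age interaction called 0 of the 42 and 0% of all tested genes with edgeR, and DESeq2 called 0 of the 42. Ifi44 and Cmpk2 had an unadjusted p under 0.05 in it, as did 4.62% of all tested genes. The comparisons share groups, so that a high or low group enters 2 of them, and their values stand side by side here without a test between them.

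**Figure D2:**
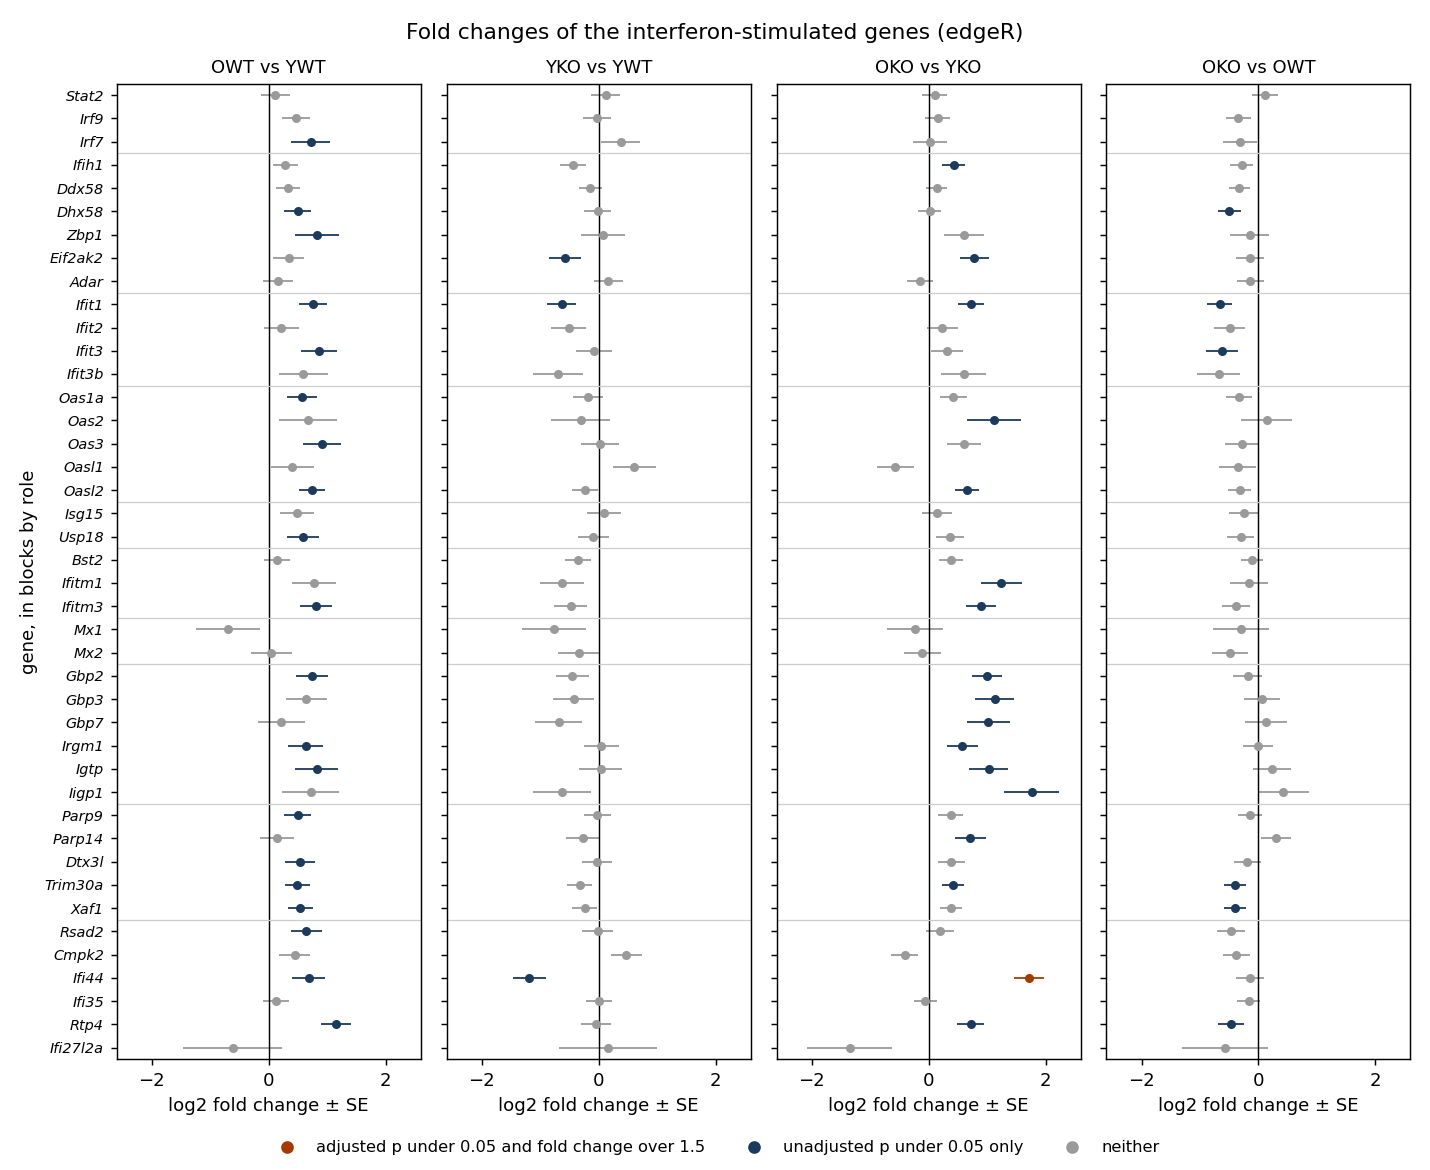
Log2 fold change ± standard error of each of the 42 genes in the comparisons of OWT and of YKO with YWT and of OKO with YKO and with OWT, from the edgeR fit of all 19 libraries, with genes in blocks by role and colours for the called gene, for an unadjusted p under 0.05 and for the rest. In OWT vs. YWT 40 points lie right of 0, in OKO vs. YKO 35 lie right of it with Ifi44 at 1.72, and in OKO vs. OWT 35 lie left of it.

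Ifi44, which is induced by type I interferon, was the only gene of the 42 that edgeR called in any comparison. It lies on chromosome 3 of mm10 (chr3:151730922-151749960, minus strand) and shares no exon with another gene. Its CPM was 46.8, 45.4, 60.8 and 31.1 in the YWT libraries, 87.03, 76.4, 67.04 and 64.7 in OWT and 18.4, 16.2, 18.5 and 27.9 in YKO, and ran from 36.6 (OKO7) to 97.6 (OKO2) with a median of 64.6 in OKO. The 4 YKO libraries were thus the lowest of all 19 and overlapped no other group, while the ranges of OKO and OWT overlapped widely. The same 4 libraries had the highest sums of erythroid markers, from 515 to 1667 CPM, against at most 446 (OKO7) in the others. The part of other cells in the Ifi44 values was not tested. From YKO to OKO Ifi44 rose by a log2 fold change of 1.72 ± 0.26 (SE, edgeR adjusted p = 0.00148). In YKO vs. YWT the log2 fold change was -1.18 ± 0.28 with an adjusted p of 0.241 by edgeR, and DESeq2 called it lower with an adjusted p of 0.0118. In OWT vs. YWT it was 0.68 ± 0.28 (edgeR adjusted p = 1), while OKO vs. OWT gave -0.15 ± 0.24. The interaction, the difference of the age effects of the 2 genotypes, was 1.04 ± 0.37 with an edgeR adjusted p of 0.811. Across the 29 alternatives the log2 fold change in YKO vs. YWT stayed between -1.41 and -1.03.

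**Figure D3:**
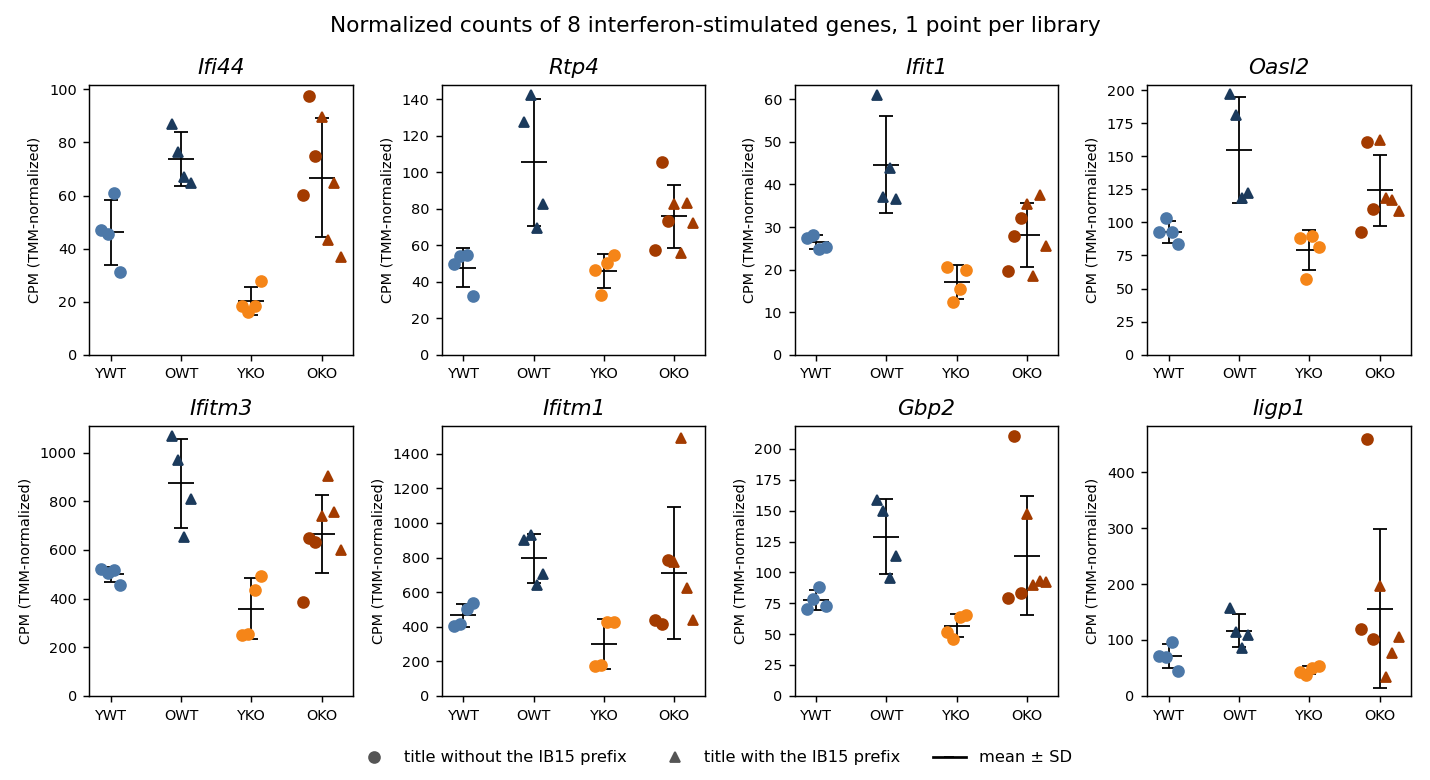
TMM-normalized CPM of Ifi44, Rtp4, Ifit1, Oasl2, Ifitm3, Ifitm1, Gbp2 and Iigp1 in each library of YWT, OWT, YKO and OKO, with 1 point per library, circles for titles without the prefix IB15, triangles for titles with it, and bars for the mean ± SD. The 4 YKO points of Ifi44 (16.2 to 27.9) lie below every other point, all 4 OWT points of Rtp4 lie above all YWT points, and OKO2 (460.1) lies far above the other libraries in Iigp1.

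Rtp4, a receptor transporter protein that restrains interferon signalling in infected cells, had the highest log2 fold change of the 42 in OWT vs. YWT. Its CPM was 49.6, 54.2, 54.6 and 31.9 in YWT and 127, 142, 69.6 and 82.4 in OWT, so each OWT library lay above each YWT library. It was 46.4, 32.9, 50.3 and 54.4 in YKO and ran from 55.9 (OKO5) to 106 (OKO2) with a median of 73.4 in OKO, where all 7 libraries lay above all 4 YKO libraries. The log2 fold change was 1.15 ± 0.26 in OWT vs. YWT (edgeR adjusted p = 0.232, DESeq2 adjusted p = 0.00243) and 0.72 ± 0.23 in OKO vs. YKO (edgeR adjusted p = 0.13). Between the genotypes it was -0.05 in young and -0.48 ± 0.22 in old HSCs. In GENCODE, 13.9% of its exon sequence overlaps an exon of Gm45338, so reads of the 2 genes there cannot be told apart.

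Among the other effectors, Rsad2 (viperin, which makes a chain-terminating nucleotide) and Cmpk2 (a mitochondrial nucleotide kinase) lie next to each other on chromosome 12. Rsad2 was 29.7, 35.03, 29.1 and 22.9 CPM in YWT and 58.04, 48.8, 36.1 and 39.6 in OWT, with no overlap and a log2 fold change of 0.65 ± 0.27 (edgeR adjusted p = 1), and its YKO and OKO means were 28.8 and 32.9. Cmpk2 was 67.1, 61.1, 56.2 and 36.1 CPM in YWT, 88.5, 79.9, 69.5 and 61.2 in OWT and 86.8, 58.9, 78.2 and 81.4 in YKO, and ran from 35.97 (OKO5) to 82.9 (OKO2) with a median of 63.2 in OKO. For Cmpk2, YKO was thus among the higher groups, and its log2 fold change was 0.47 ± 0.26 against YWT and -0.41 ± 0.23 in OKO vs. YKO, with an interaction of -0.85 ± 0.35 (edgeR adjusted p = 0.811). Ifi35, a cytosolic protein, had group means of 66.4 in YWT, 72.2 in OWT, 67.05 in YKO and 64.4 in OKO. Ifi27l2a, a small mitochondrial protein, was spread widely within each group. It was 7.62, 21.4, 5.85 and 3.82 CPM in YWT, 2.89, 2.25, 12.7 and 7.37 in OWT and 15.1, 18.7, 4.13 and 5.47 in YKO, and ran from 0.604 (OKO3) to 16.6 (OKO7) with a median of 1.93 in OKO. Its highest libraries, YWT2, YKO2, OKO7, YKO1 and OWT3, each had the highest or second highest B cell marker sum of their group, at 642, 1452, 195, 789 and 204 CPM, and the part of other cells in its level was not tested. In bulk libraries, fewer cells of a type and less RNA per cell cannot be told apart.

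None of the 3 transcription factors was called in any comparison. Stat2, which carries the activation domain of the type I interferon complex, had means of 68.9 ± 13.7 CPM (SD, n = 4) in YWT, 74.5 ± 21.7 (n = 4) in OWT, 74.8 ± 12.3 (n = 4) in YKO and 80.5 ± 19.9 (n = 7) in OKO, and its log2 fold changes lay between 0.11 and 0.12 in the 4 comparisons. Irf9, its DNA-binding partner, was 127, 139.9, 124 and 97.5 CPM in YWT and 198, 205, 132 and 139.5 in OWT, a log2 fold change of 0.47 ± 0.24, and 133, 112, 118 and 113 in YKO. OWT1 and OWT2 were above all YWT libraries, and OWT3 and OWT4 were within their range. Irf7, the main inducer of interferon alpha genes, was 46.4, 47.04, 34.8 and 25.9 CPM in YWT, 78.1, 83.8, 50.1 and 40.99 in OWT and 65.7, 38.6, 46.5 and 49.4 in YKO, and ran from 31.5 (OKO5) to 101 (OKO2) with a median of 38.1 in OKO. Its log2 fold change was 0.72 ± 0.33 in OWT vs. YWT (edgeR adjusted p = 1) and 0.03 ± 0.29 in OKO vs. YKO.

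The 6 sensors were all higher on average in OWT than in YWT, with log2 fold changes from 0.16 for Adar, which edits adenosine to inosine in double-stranded RNA, to 0.82 for Zbp1, a sensor of left-handed nucleic acids that triggers cell death. Eif2ak2 (PKR), the kinase that halts translation on double-stranded RNA, was 32.4, 29.3, 32.8 and 23.1 CPM in YWT, 35.3, 40.6, 44.4 and 28.5 in OWT and 27.1, 11.5, 20.02 and 20.3 in YKO, and ran from 21.99 (OKO5) to 49.5 (OKO2) with a median of 32.4 in OKO. In 3 of the 4 YKO libraries the level was below all YWT libraries, and the YKO vs. YWT log2 fold change was -0.58 ± 0.27 (edgeR adjusted p = 1) beside 0.78 ± 0.25 in OKO vs. YKO (edgeR adjusted p = 0.122). Ifih1 (MDA5), which detects long double-stranded RNA, went with it in sign, at -0.43 ± 0.22 in YKO vs. YWT and 0.43 ± 0.20 in OKO vs. YKO. Ddx58 (RIG-I), which detects uncapped RNA ends, had means of 81.3 CPM in YWT, 102 in OWT, 73.8 in YKO and 81.3 in OKO. Dhx58 (LGP2), their regulator without a signalling domain, was 49.6, 55.9, 44.96 and 37.9 CPM in YWT and 76.9, 88.6, 47.8 and 51.7 in OWT and ran from 37.1 (OKO7) to 63.5 (OKO4) with a median of 43.1 in OKO. The 2 highest Dhx58 values were OWT1 and OWT2, and the log2 fold change in OKO vs. OWT was -0.50 ± 0.20 (edgeR adjusted p = 0.592). Zbp1 was 19.1, 41.9, 18.2 and 14.9 CPM in YWT and ran from 18.5 (OKO3) to 78.4 (OKO2) with a median of 30.5 in OKO, and Adar had means of 136, 152, 152 and 138 CPM in YWT, OWT, YKO and OKO.

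The IFIT genes, whose products bind the ends of viral RNAs, had negative log2 fold changes in all 4 genes both in YKO vs. YWT and in OKO vs. OWT, none of which passed the test. Ifit1 was 27.5, 28.1, 24.9 and 25.2 CPM in YWT, 60.97, 37.01, 43.8 and 36.6 in OWT and 20.7, 12.3, 15.5 and 19.8 in YKO, and ran from 18.4 (OKO5) to 37.6 (OKO6) with a median of 27.9 in OKO. Each OWT library lay above each YWT library, and each YKO library lay below each YWT library, while OKO overlapped each of the other groups. Its log2 fold change was 0.75 ± 0.24 in OWT vs. YWT, -0.63 ± 0.24 in YKO vs. YWT, 0.72 ± 0.22 in OKO vs. YKO and -0.66 ± 0.21 in OKO vs. OWT, with edgeR adjusted p-values of 0.667, 0.886, 0.108 and 0.592. Ifit2 was 41.02, 37.1, 43.1 and 22.7 CPM in YWT and 30.1, 17.9, 24.4 and 28.5 in YKO, and its means in OWT and OKO were 41.8 and 29.7. Ifit3 and Ifit3b, which share much of their sequence, were low, with means of 5.66 and 2.02 CPM in YWT. For Ifit3 the log2 fold change was 0.86 ± 0.31 in OWT vs. YWT and -0.62 ± 0.27 in OKO vs. OWT, and for Ifit3b 0.59 ± 0.42 and -0.68 ± 0.37. OWT1 held the highest value of all 19 libraries in Ifit1, Ifit3 and Ifit3b.

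In the OAS family, whose active members make the oligoadenylates that activate RNase L, Oasl2 had separate ranges in both age comparisons. It was 92.4, 103, 92.5 and 83.4 CPM in YWT, 197, 181, 119 and 122 in OWT and 87.9, 57.05, 90.01 and 81.4 in YKO, and ran from 92.9 (OKO1) to 162 (OKO4) with a median of 117 in OKO. The log2 fold change was 0.74 ± 0.23 in OWT vs. YWT (edgeR adjusted p = 0.583) and 0.65 ± 0.20 in OKO vs. YKO (edgeR adjusted p = 0.116). Oas3 was 31.8, 31.7, 30.5 and 24.8 CPM in YWT and 79.5, 70.3, 40.00 and 33.6 in OWT, again with no overlap, a log2 fold change of 0.91 ± 0.32, and ran from 27.7 (OKO3) to 85.02 (OKO2) with a median of 33.7 in OKO. Oas1a had means of 40.3, 59.9, 35.5 and 47.5 CPM in YWT, OWT, YKO and OKO. Oas2 was low, from 3.91 to 9.37 CPM in YWT, and ran from 4.57 (OKO6) to 31.4 (OKO2) with a median of 9.37 in OKO. Oasl1, an OAS-like protein that limits Irf7 translation, had the opposite signs in the KO HSCs. It was 17.3, 16.4, 10.7 and 8.13 CPM in YWT and 25.9, 12.6, 19.4 and 22.4 in YKO, and ran from 7.59 (OKO3) to 22.3 (OKO7) with a median of 11.98 in OKO, and its log2 fold change was 0.61 ± 0.36 in YKO vs. YWT and -0.57 ± 0.32 in OKO vs. YKO.

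Isg15, the ubiquitin-like modifier, and Usp18, the protease that removes it and also restrains the type I receptor, were not called between the genotypes at either age. Isg15 was 10.7, 8.71, 10.8 and 7.301 CPM in YWT, 13.8, 13.4, 13.1 and 12.3 in OWT and 10.7, 7.39, 8.34 and 13.6 in YKO, and ran from 7.28 (OKO3) to 17.5 (OKO2) with a median of 9.598 in OKO. Each OWT value was above each YWT value, by a log2 fold change of 0.49 ± 0.29 that did not pass the test (edgeR adjusted p = 1). In YKO vs. YWT the 95% interval of the Isg15 log2 fold change ran from -0.51 to 0.69. Usp18 was 23.6, 20.4, 23.3 and 16.2 CPM in YWT and 38.7, 37.3, 26.8 and 22.7 in OWT, a log2 fold change of 0.59 ± 0.27, with means of 19.6 in YKO and 25.4 in OKO.

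Ifitm1 and Ifitm3, the most abundant genes of the group, were lowest in YKO1 and YKO2. Ifitm3 was 522, 505, 518 and 455 CPM in YWT, 1067, 971, 651 and 808 in OWT and 250.02, 253, 435 and 494 in YKO, and ran from 384 (OKO1) to 903 (OKO5) with a median of 648 in OKO. Each OWT library lay above each YWT library, and YKO1, YKO2 and YKO3 lay below all YWT libraries. Its log2 fold change was 0.81 ± 0.28 in OWT vs. YWT (edgeR adjusted p = 0.755) and 0.90 ± 0.25 in OKO vs. YKO (edgeR adjusted p = 0.0772). With the prefix as a covariate, the OWT vs. YWT value was 0.37 ± 0.36 for Ifitm3 and 0.17 ± 0.51 for Ifitm1. Ifitm1 was 406, 415, 502 and 539 CPM in YWT, 904, 929.7, 642 and 704 in OWT and 171, 178, 424 and 429.6 in YKO, and ran from 418 (OKO2) to 1493 (OKO5) with a median of 623 in OKO, with a log2 fold change of 1.24 ± 0.35 in OKO vs. YKO (edgeR adjusted p = 0.0792). The 2 libraries with the lowest Ifitm1 and Ifitm3 were also those with the highest sums of B cell markers, and of the 7 plasmacytoid dendritic cell markers (106 and 182 CPM, against 13.4 to 94.4 in the others). In YKO most of the latter sum was Irf8, a factor of the dendritic and B lineages (mean 79.6 CPM, beside a mean sum of 88.2). Siglech, Ccr9, Klk1, Pacsin1 and Tlr9 reached no more than 2.26, 5.95, 0.446, 5.53 and 1.24 CPM in any library. Of the 7 markers, Cox6a2 and Klk1 were at 0 in some libraries. The part of such cells in the Ifitm values was not tested. Bst2 had means of 69.2 ± 11.2 CPM (SD, n = 4) in YWT, 76.2 ± 8.003 (n = 4) in OWT, 54.2 ± 5.81 (n = 4) in YKO and 70.6 ± 18.3 (n = 7) in OKO.

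The GBP and IRG GTPases, which interferon gamma induces most and which attack the vacuoles of intracellular pathogens, were the only role group in which every gene had an unadjusted p under 0.05 in OKO vs. YKO, 6 of 6, with a median log2 fold change of 1.02. Without OKO2, the highest of all 19 libraries in each of the 6, these became 5 of 6 and 0.72, with Irgm1 at 0.38 ± 0.23, Gbp7 at 0.64 ± 0.29, Igtp at 0.66 ± 0.25 and Iigp1 at 1.21 ± 0.34. None was called with or without it. Gbp2 was 70.2, 78.4, 88.5 and 72.8 CPM in YWT, 159, 149.5, 95.1 and 113 in OWT and 51.7, 46.2, 63.5 and 65.5 in YKO, and ran from 78.9 (OKO1) to 210.2 (OKO2) with a median of 92.1 in OKO. The YKO libraries lay below those of each other group without overlap, with a log2 fold change of 1.00 ± 0.25 in OKO vs. YKO (edgeR adjusted p = 0.0526) and of -0.45 ± 0.28 in YKO vs. YWT. Gbp3 was 43.3, 46.7, 57.6 and 41.7 CPM in YWT and 29.2, 39.2, 37.7 and 34.7 in YKO, and ran from 41.7 (OKO1) to 179 (OKO2) with a median of 48.2 in OKO. Gbp7 was 119, 99.1, 148 and 91.6 CPM in YWT and 80.7, 52.1, 74.3 and 77.7 in YKO, and ran from 43.1 (OKO5) to 353 (OKO2) with a median of 118 in OKO, so both were below the YWT range in each YKO library. For Gbp3 and Gbp7 the log2 fold change in OKO vs. YKO was 1.13 ± 0.33 and 1.02 ± 0.37, with edgeR adjusted p-values of 0.0871 and 0.174.

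Of the IRG genes, Igtp was 94.2, 97.3, 102 and 75.5 CPM in YWT, 196, 183, 120.2 and 154 in OWT and 110.3, 85.9, 90.6 and 91.02 in YKO, and ran from 102 (OKO5) to 450.4 (OKO2) with a median of 129.8 in OKO. Irgm1, which regulates the effector IRG proteins and is known to be needed for HSC maintenance under interferon, was 129.8, 110.2, 133 and 95.9 CPM in YWT, 187, 211, 153 and 174 in OWT and 152, 86.8, 120.4 and 124 in YKO, and ran from 111 (OKO3) to 324 (OKO2) with a median of 152 in OKO. In both genes each OWT value was above each YWT value, while YKO overlapped YWT. Iigp1 was 72.2, 69.7, 96.7 and 44.6 CPM in YWT and 42.5, 38.2, 49.96 and 53.1 in YKO, and ran from 33.5 (OKO5) to 460.1 (OKO2) with a median of 106 in OKO, the widest span of the group. Its log2 fold change in OKO vs. YKO was 1.77 ± 0.47 (edgeR adjusted p = 0.0636).

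The library OKO2 stood apart in the GBP and IRG genes. It held the highest value of all 19 libraries in 18 of the 42 genes, against 7.74% of all tested genes, among them all 6 GBP and IRG genes, with 353 CPM for Gbp7, 324 for Irgm1 and 450.4 for Igtp. The median over these 6 genes of the deviation from the 19-library mean was 1.69 in OKO2 on the log2(CPM + 1) scale, 0.78 in OKO4 and 0.33 or less in the other OKO libraries. The same median in OKO2 was 0.75 for the ISG15 system, 0.62 for the transcription factors and 0.55 for the OAS family. It was 0.53 for the other effectors, 0.505 for the PARP, ubiquitin ligase and apoptosis-linked genes and 0.42 for the sensors. The lowest were 0.19 for the membrane proteins, 0.09 for the IFIT genes and 0.05 for the Mx genes. Without OKO2 14 of the 42 were higher in OKO vs. YKO at an unadjusted p under 0.05 (7.39% of all genes tested in that fit). In the other direction 2 were lower (7.54%). The median of the 42 was 0.34 against 0.195 over all genes tested. Ifi44 stayed the only call, where 1.36% of all genes tested were called. In OKO2 the 8 macrophage and monocyte markers summed to 41.8 CPM and the 7 T and NK cell markers to 50.6. Over the OKO libraries these sums ran from 28.3 to 275 and from 30.7 to 193. The erythroid markers summed to 278 in OKO2, in an OKO range of 24.0 to 446. Sums in OKO2 were 29.9 for B cell, 27.2 for plasmacytoid dendritic cell, 76.5 for granulocyte and 283 for megakaryocyte and platelet markers. The part of other cells in the OKO2 values was not tested. In OWT1 12 of the 42 genes were at their highest (6.39% of all tested genes), and in YKO2 11 were at their lowest (2.97%).

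**Figure D4:**
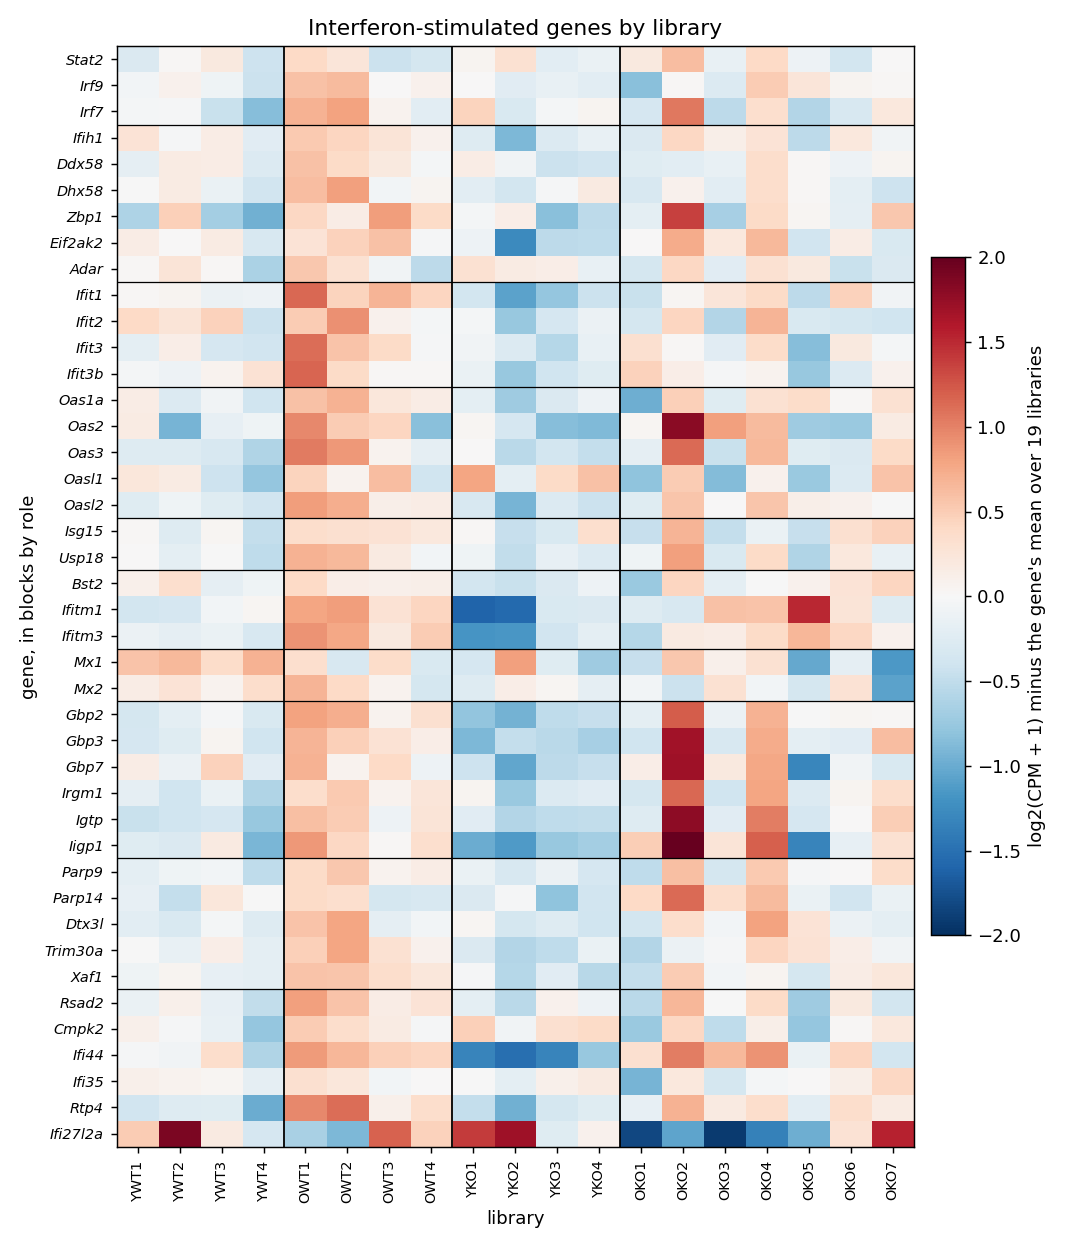
Deviation of each of the 42 genes (rows, in blocks by role) from its own mean over the 19 libraries (columns, by group), on the log2(CPM + 1) scale, in red above and blue below the mean, with colours cut at 2. OWT1, OWT2, OWT3, OKO2 and OKO4 are red in most rows, with a median deviation over the 42 genes of 0.153 or more. OWT4, OKO7 and OKO6 have smaller positive medians (0.087, 0.042 and 0.031). The 4 YKO columns are blue in Ifi44 and in the GBP block, and OKO2 is darkest in the GBP and IRG block, with a median of 1.69.

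None of the 5 PARP, ubiquitin ligase and apoptosis-linked genes was called. Parp9 and its partner ligase Dtx3l, which form a complex that enhances interferon signalling, were 76.8, 83.7, 85.4 and 61.7 CPM and 109.9, 103, 124 and 107 CPM in YWT against 115, 129, 92.9 and 97.8 and 190.5, 221, 113 and 123 in OWT. Their log2 fold changes were 0.50 ± 0.23 and 0.54 ± 0.26 in OWT vs. YWT, and the 2 genes overlap at their starts, so 9.4% of Parp9 exon sequence is shared. Parp14, a mono-ADP-ribosyltransferase, had a mean of 32.7 CPM in YKO and ran from 31.8 (OKO6) to 93.2 (OKO2) with a median of 53.5 in OKO, a log2 fold change of 0.71 ± 0.27 (edgeR adjusted p = 0.188). Trim30a, which restrains Toll-like receptor signalling, was 66.9, 60.1, 74.04 and 58.5 CPM in YWT, 93.5, 116, 83.5 and 71.5 in OWT and 54.9, 44.3, 46.9 and 61.3 in YKO, and Xaf1, a pro-apoptotic antagonist of XIAP, was 28.00, 31.00, 26.5 and 25.9 in YWT and 44.95, 44.1, 38.1 and 34.9 in OWT. Their log2 fold changes in OWT vs. YWT were 0.49 ± 0.21 and 0.54 ± 0.21, and in OKO vs. OWT -0.40 ± 0.19 and -0.40 ± 0.19 (edgeR adjusted p = 0.592 and 0.592).

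The Mx genes, dynamin-like GTPases that block viral ribonucleoproteins, were among the lowest of the 42, and neither was called. Mx1 was 3.86, 4.101, 3.23 and 4.29 CPM in YWT, 3.11, 1.61, 3.22 and 1.64 in OWT and 1.597, 4.78, 1.75 and 0.994 in YKO, and ran from 0.482 (OKO7) to 3.76 (OKO2) with a median of 1.901 in OKO. All OWT libraries lay below all YWT libraries, by a log2 fold change of -0.69 ± 0.55 that did not pass the test (edgeR adjusted p = 1). Mx2, annotated as a polymorphic pseudogene in GENCODE, was 4.35, 4.85, 4.07 and 5.16 CPM in YWT and 6.76, 5.38, 4.04 and 2.78 in OWT, and had means of 3.63 in YKO and 3.39 in OKO.

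The rest of the pathway was followed in lists of genes outside the 42. Of the 21 interferon genes, 5 passed the filter (Ifna15, Ifnab, Ifnb1, Ifnz and Ifng), and none was called in any comparison. Of the 9 receptors and kinases, all tested, none was called either. Among the 6 signal transducers and IRFs, 1 fell in OKO vs. YKO, Irf8, a factor of the dendritic and B lineages that is also a marker in the plasmacytoid dendritic cell list. Its mean was 79.6 CPM in YKO and 15.5 in OKO, a log2 fold change of -2.36 ± 0.42 (edgeR adjusted p = 0.00576). Of the 11 sensors and adaptors none was called. Of the 7 negative regulators, 6 were tested and 1 rose in OKO vs. YKO, Socs3, the feedback inhibitor of cytokine receptors, from a mean of 14.7 to 106 CPM (log2 fold change 2.85 ± 0.72, edgeR adjusted p = 0.0498). Trex1 was listed at 0 in every library.

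A list of 42 other interferon-induced genes gave 5 called genes in OKO vs. YKO, where 1.29% of all tested genes were called, and all 5 rose. They were Slfn5 (log2 fold change 1.67 ± 0.27, edgeR adjusted p = 0.00228), Tgtp1 (1.47), Phf11d (1.39), Oas1g (1.09) and Slfn8 (0.94). Slfn5, of the Schlafen family, had means of 12.9 CPM in YWT, 23.9 in OWT, 7.89 in YKO and 25.1 in OKO. Slfn8 had means of 51.05, 63.2, 27.9 and 53.5 CPM in the same order of groups. In OWT vs. YWT 35 of these 42 had a positive log2 fold change, with a median of 0.34, 10 were higher at an unadjusted p under 0.05, where 2.64% of all tested genes were, and none was called. Phf11d had the smallest edgeR adjusted p there, 0.104, with means of 8.601 CPM in YWT and 31.3 in OWT. In YKO vs. YWT 29 of these 42 had a negative log2 fold change, with a median of -0.15. Beside these results, markers of other cells differed between YKO and OKO: 5 of 7 B cell markers, 4 of 6 erythroid markers, 2 of 8 macrophage and monocyte markers and 2 of 7 T and NK cell markers fell in OKO vs. YKO, and 1 T and NK cell marker rose, where 1.29% of all tested genes were called. The granulocyte markers summed to 74.4 to 239 CPM in YWT and 299.9 to 564 in OWT, and none of the 7 was called. The part of these cells in the interferon-stimulated genes was not tested.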

How the data were processed

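RNA was prepared with TRIzol and Direct-zol and made into SMART-Seq v4 libraries. Per the labels, the authors used Trim Galore 0.4.3, cutadapt, STAR, featureCounts and mm10. They deposited raw counts per gene symbol, with strandedness not given in the sources used here. The bisulfite libraries of the series were not used here. Counts of 19 libraries were analysed with edgeR 4.0.16 in R 4.3.3 (filterByExpr, TMM, quasi-likelihood test, 1 mean per group in 1 fit, no covariate), with Benjamini-Hochberg adjustment over 33690 genes. Genes were called at a fold change of more than 1.5 with an adjusted p below 0.05, and in the interaction at the adjusted p alone. CPM used the TMM factors. The test was checked on simulated counts with known large changes and with no batches or mixed cells, so the check does not cover small changes or those features of the data. Alternatives were DESeq2 1.42.0, upper-quartile factors, other filters, the compared groups alone, the title set or Y-linked reads as covariate, a replicate block, robust estimation and leaving out each library. The 42 genes, the role groups and the other lists were chosen with earlier results of these data known. Genes described with values per library were those called, the 4 highest and 4 lowest log2 fold changes per comparison among genes whose log2 CPM averaged 3 or more, and a set list, and further genes were described so that all 42 are accounted for. Gene positions came from GENCODE M21, and promoter windows from RefSeq. Equal replicate numbers did not pair libraries, with correlations of their deviations from -0.45 to 0.28.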

Additional observations from a re-analysis of the deposited data

Results flagged for a closer look

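In 9 of 168 combinations of gene and group, 1 library lay far from the others of its group by Dixon's test at the 95% level, which chance gives in about 1 in 20 groups. OKO2 was the library in 5 of them, with 100.7 CPM for Irf7, 78.4 for Zbp1, 31.4 for Oas2, 179 for Gbp3 and 460.1 for Iigp1, each above the other OKO libraries. Ifitm1 was at 1493 CPM in OKO5, above the other OKO libraries, and Ifi27l2a at 16.6 CPM in OKO7, also above them. Zbp1 was at 41.9 CPM in YWT2 and Bst2 at 88.2 CPM in OWT1.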

How the results depend on the processing

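In OKO vs. YKO the number of the 42 genes called was 1 with edgeR, 13 with DESeq2, 11 with upper-quartile factors, 6 with no filter on low counts, 22 with a mean CPM of at least 5, 11 with the title set as covariate, 13 with OKO of 1 title set, 2 with robust estimation and 2 with Y-linked reads as covariate. Of all genes tested, 1.29% were called with edgeR. In the alternatives, in the same order, 6.3%, 3.2%, 1.18%, 12.1%, 19.1%, 17.9%, 1.5% and 1.83% were called. The number of the 42 called was 4 without the libraries of a TMM factor over 1.2 (YWT4 and OKO1 to OKO3), a choice made after seeing the data. The share of all genes tested lay between 0.377% and 19.1%, as in each alternative other than leaving out 1 library. All OKO libraries left in that fit carry the prefix IB15 and no YKO library does, so age and batch cannot be told apart there. Leaving out 1 library gave 1 to 7, with 7 without OKO7 (5.47% of all genes tested) and 3 without OKO1 (1.47%) or OKO5 (1.17%). It gave 2 without YWT1, YWT2, YWT3, YKO4 or any 1 OWT library (0.994% to 1.27% of all genes tested). With the replicate block, a number that did not pair libraries, it was 9 (5.27% of all genes tested), and in each other comparison and the interaction it was 0. DESeq2 called 1 of the 42 in OWT vs. YWT, where it called 0.401% of all tested genes. It also called 1 in YKO vs. YWT, where it called 0.404%, and edgeR called 0 of the 42 in both. The causes were not tested. The median of the 42 genes in OKO vs. OWT moved from -0.29 to -0.05 with upper-quartile factors and to -0.01 with the filter at a mean CPM of 5, where the median interaction was 0.16. The log2 fold change took the other sign under some alternative in 8 of 42 genes in OWT vs. YWT, 13 in YKO vs. YWT, 8 in OKO vs. YKO and 20 in OKO vs. OWT.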
